A study of Mus musculus with 4 samples.

Results

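The glucose transporter gene *Slc2a1* and 9 genes of glycolysis (*Hk1*, *Hk2*, *Gpi1*, *Aldoa*, *Tpi1*, *Pgk1*, *Eno1*, *Pkm* and *Ldha*) were followed in Tc1 and Tc9 cells that had been sorted from melanomas. They were chosen by gene symbol for their place in the pathway and make up 10 of the 15981 genes listed in at least 1 of the 4 libraries. The libraries hold RNA of Thy1.1+ Pmel-1 CD8+ T cells, which carry a transgenic receptor for a melanoma antigen. The cells spent 5 days in culture, first under conditions for Tc1 cells (rhIL-2) or for Tc9 cells (IL-4, TGF-β and antibody to IFN-γ). There the methods name activation with antibodies to CD3 and CD28, or in some experiments with antigen peptide. Which of these was used for the libraries is not given in the sources used here. Both groups of cells were then kept in medium with rhIL-2. They were then given i.v. to Thy1.2+ C57BL/6 (B6) mice with a B16 melanoma that had grown s.c. for 10 days. For this tumor model the methods also name cyclophosphamide, peptide-pulsed dendritic cells and rhIL-2 as treatments of the recipient mice. Both groups were sorted 14 days after transfer, on day 24 of tumor growth, and neither the ages of the mice nor their number in each library are given in the sources used here. Each group has 2 libraries (replicates 1 and 2) of RNA that was pooled across mice, so that spread between libraries is spread between pools.

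Glycolysis turns glucose into pyruvate in the cytosol and yields ATP without oxygen. Activated CD8+ T cells take up much glucose and convert a large part of the pyruvate to lactate, a habit known as aerobic glycolysis. Glucose enters through GLUT1, the product of *Slc2a1*, and is held in the cell by a hexokinase, the product of *Hk1* or *Hk2*. Glucose phosphate isomerase (*Gpi1*), aldolase A (*Aldoa*) and triose phosphate isomerase (*Tpi1*) then lead to triose phosphates. Phosphoglycerate kinase 1 (*Pgk1*), enolase 1 (*Eno1*) and pyruvate kinase (*Pkm*) lead from there to pyruvate, and lactate dehydrogenase A (*Ldha*) makes lactate. Many of these genes are known targets of HIF-1, the hypoxia-induced factor made of HIF-1α and ARNT, and of MYC.

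The gene tables end at different points in the order of gene identifiers, and this sets which libraries can be compared for which gene. All 10 genes were reached in Tc1 replicate 2 and Tc9 replicate 2, 6 of them (*Hk1*, *Hk2*, *Gpi1*, *Aldoa*, *Eno1* and *Ldha*) also in Tc9 replicate 1, and *Aldoa* alone also in Tc1 replicate 1. Library depth was 30822953 to 31927162 counts. At such a depth a count of 0 allows a level of up to 3 counts, or 0.0940 to 0.0973 CPM (counts scaled by library size), and the lowest count of any of the 10 genes was 2616. The 2 Tc1 libraries lay close together, with a median difference of 0.05 on the log2 scale over 625 genes with at least 1000 counts in both, and 95% of these genes within 0.15. The 2 Tc9 libraries lay further apart, with a median of 0.20 over 1229 such genes and 95% of them within 0.49.

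Upstream sequence is shown for *Ldha*, whose windows hold the letters marked below most often, and for the 2 hexokinase genes. The levels of these 2 in both Tc9 libraries lay on opposite sides of the 1 Tc1 library that reaches them. Neither difference passed the test. The windows are the 250 bases before an annotated start, 5′ to 3′ on the strand of the gene, from RefSeq on GRCm38.p6 (the assembly whose coordinates mm10 carries), and all 10 genes were matched there. Capitals mark ACGTG, or CACGT on the other strand, 1 form of the core letters of the hypoxia response element. The core can also read GCGTG, which was not searched for. The E-box letters CACGTG, which MYC and MAX bind, contain the marked form on both strands.
*Hk1*, inner start, chr10:62340422-62340671, minus strand: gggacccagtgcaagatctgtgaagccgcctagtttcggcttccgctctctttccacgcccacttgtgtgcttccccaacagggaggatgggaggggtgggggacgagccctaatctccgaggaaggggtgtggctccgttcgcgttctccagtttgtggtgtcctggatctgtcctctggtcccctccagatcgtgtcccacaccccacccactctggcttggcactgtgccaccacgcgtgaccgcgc
*Hk1*, outer start, chr10:62379909-62380158, minus strand: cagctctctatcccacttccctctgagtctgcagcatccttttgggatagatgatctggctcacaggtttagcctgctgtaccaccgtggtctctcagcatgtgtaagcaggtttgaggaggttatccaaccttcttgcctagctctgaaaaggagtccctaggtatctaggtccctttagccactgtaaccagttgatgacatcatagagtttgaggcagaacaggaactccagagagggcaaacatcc
*Hk2*, chr6:82774455-82774704, minus strand: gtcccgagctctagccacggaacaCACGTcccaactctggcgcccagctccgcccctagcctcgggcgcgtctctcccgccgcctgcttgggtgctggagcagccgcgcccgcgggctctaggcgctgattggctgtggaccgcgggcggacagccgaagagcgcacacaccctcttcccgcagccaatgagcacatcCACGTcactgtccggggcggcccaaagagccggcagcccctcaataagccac
*Ldha*, first of 2 windows, chr7:46845554-46845803, plus strand: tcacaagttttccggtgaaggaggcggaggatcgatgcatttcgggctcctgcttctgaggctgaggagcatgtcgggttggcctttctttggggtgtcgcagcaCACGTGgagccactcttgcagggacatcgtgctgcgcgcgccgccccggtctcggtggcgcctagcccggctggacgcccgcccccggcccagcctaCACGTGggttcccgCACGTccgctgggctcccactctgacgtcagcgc
The marked letters stand in 2 places before *Hk2* and in 3 places before *Ldha*, where 2 of them are CACGTG. Neither *Hk1* window holds them, but the inner one holds GCGTG. As GCGTG was not searched for, lack of the marked form does not show lack of the core. Over all 10 genes, 6 had the marked form in at least 1 window (*Slc2a1*, *Hk2*, *Aldoa*, *Pgk1*, *Pkm* and *Ldha*), beside 18.5% of all genes. The other 4 did not have the marked form (*Hk1*, *Gpi1*, *Tpi1* and *Eno1*). Counted by window, 7 of 17 (41.2%) held it, beside 16.6% of the 32851 windows of all genes, and 2 of the 7 are overlapping windows of *Aldoa* that share 1 site. CACGTG stood in a window of *Ldha* only, beside 6.86% of all 27025 genes with a window. These are matches of letters and do not show that a factor binds there.

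The genes fell into abundant and sparse steps (FPKM, a level per length of transcript and per library size). In Tc9 replicate 2, where 15442 genes were listed, *Eno1* was the 22nd most abundant gene, at 2349 FPKM, and *Aldoa* the 26th. *Ldha* was 56th, *Pkm* 63rd, *Pgk1* 75th, *Gpi1* 111th and *Tpi1* 116th. The transporter and the hexokinases were far lower, with *Hk1* at 1125th, *Slc2a1* at 2389th and *Hk2* at 2793rd. The highest of the 10 genes stood 58.7-fold above the lowest in Tc1 replicate 2 and 78.4-fold in Tc9 replicate 2. Together the 10 genes took 1.51% of all counts in Tc1 replicate 2, against 1.88% in Tc9 replicate 2. In RNA of whole cell pools, fewer cells of a kind and less RNA per cell cannot be told apart.

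**Figure D1:**
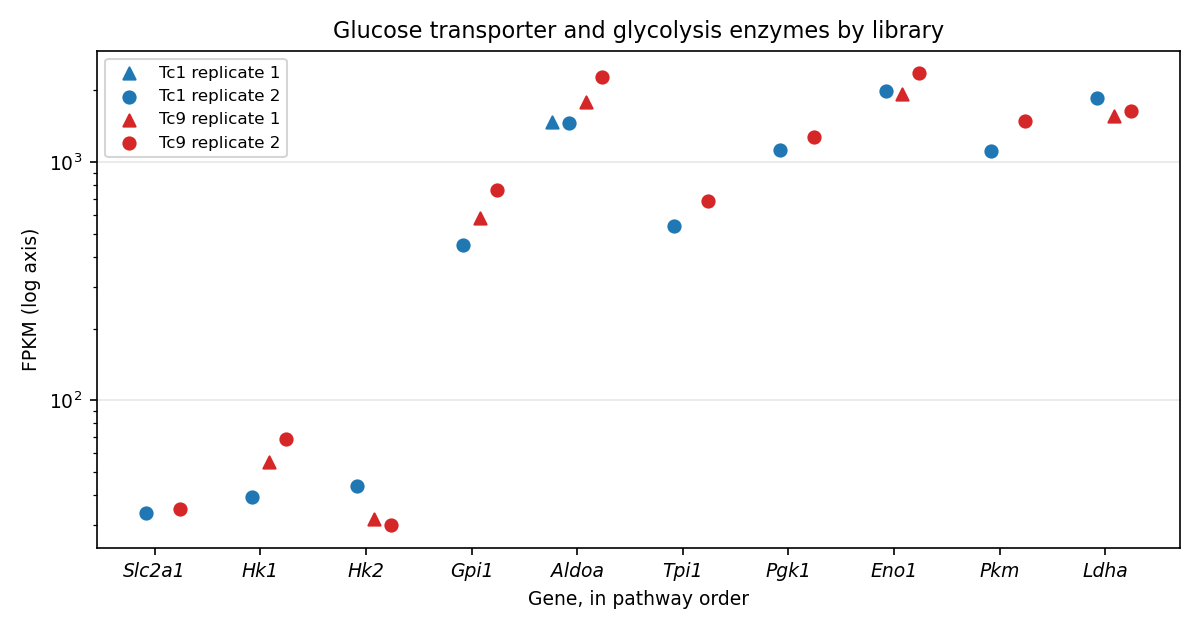
Level of each gene in each library that reaches it, in FPKM on a log axis, with genes in pathway order (blue, Tc1; red, Tc9; triangles, replicate 1; circles, replicate 2). The transporter and the 2 hexokinases lie between 30.0 and 68.9 FPKM and the other 7 genes between 446 and 2349, and *Hk1* and *Hk2* are ordered oppositely in Tc1 and Tc9 cells.

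*Slc2a1* (chr4:119108745-119137330) was reached only in the replicate 2 libraries and stood at 33.7 FPKM in Tc1 and 34.9 in Tc9 cells. The counts behind these values were 2616 and 2621. The log2 ratio of Tc9 to Tc1 was 0.0037, with a 95% counting interval (Wilson) from -0.07 to 0.08, and its sign turned to -0.03 with TMM scaling factors computed over all genes that the 2 libraries reach. With 1 library in each group, this interval covers counting error only, and no test was made.

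The hexokinases differed in opposite directions. *Hk1* (chr10:62268855-62379920), the broadly expressed hexokinase, stood at 39.3 FPKM in Tc1 replicate 2, 55.1 in Tc9 replicate 1 and 68.9 in Tc9 replicate 2. Both Tc9 libraries were above the Tc1 library, and the Tc9 libraries themselves differed by 1.24-fold. *Hk2* (chr6:82725025-82774454), the inducible hexokinase of activated T cells, muscle and many tumors, stood at 43.9, 31.7 and 30.0 FPKM in the same order. Both Tc9 libraries were below the Tc1 library and within 0.10 of each other on the log2 scale. The share of *Hk2* in the summed FPKM of *Hk1* and *Hk2* was therefore 52.8% in Tc1 replicate 2, 36.5% in Tc9 replicate 1 and 30.3% in Tc9 replicate 2. In edgeR's quasi-likelihood test over these 3 libraries, the log2 fold change of Tc9 over Tc1 cells was 0.61 ± 0.24 (SE) for *Hk1*, with an adjusted p of 0.180. For *Hk2* it was -0.56 ± 0.21, with an adjusted p of 0.163, so that neither gene passed the threshold of 0.05 (Benjamini-Hochberg over 2622 genes). The unadjusted edgeR p was 0.0459 for *Hk1* and 0.0379 for *Hk2*, and 26.7% of all genes tested had an unadjusted p under 0.05. This test assumes that the lone Tc1 library varies as the Tc9 libraries do.

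*Gpi1* (chr7:34201327-34230336), which converts glucose 6-phosphate to fructose 6-phosphate, stood at 446 FPKM in Tc1 replicate 2, 584 in Tc9 replicate 1 and 760 in Tc9 replicate 2. Both Tc9 libraries lay above the Tc1 library, but the step between the 2 Tc9 libraries, 1.29-fold, was about as large as that from Tc1 replicate 2 to Tc9 replicate 1, 1.28-fold. The edgeR log2 fold change over the 3 libraries was 0.55 ± 0.23 (SE), with an adjusted p of 0.193. Scaling by depth alone, without TMM factors, gave 0.59 with an edgeR adjusted p of 0.0269, and the adjusted p ranged from 0.0269 to 0.378 over 7 alternatives.

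*Aldoa* (chr7:126795234-126800994), the aldolase of muscle and of most growing cells, was the only one of the 10 genes read in all 4 libraries. It had 65162 and 64513 counts in Tc1 replicates 1 and 2, and 77219 and 97318 counts in Tc9 replicates 1 and 2. Its FPKM was 1464 and 1450 in Tc1 cells and 1783 and 2263 in Tc9 cells. The groups did not overlap, the Tc1 libraries were almost equal, and the Tc9 libraries differed by 1.26-fold. *Aldoa* was higher in Tc9 than in Tc1 cells by 0.43 ± 0.12 (SE) on the log2 scale, a 1.35-fold difference, with an edgeR adjusted p of 0.0183 over the 1284 genes tested in all 4 libraries. In that test, 34.1% of all genes were called, 17.4% higher and 16.7% lower in Tc9 cells, and the groups did not overlap for 70.4% of them. The call did not hold without Tc1 replicate 1 (0.44, adjusted p = 0.180), without Tc1 replicate 2 (0.43, adjusted p = 0.123) or without the filter on low counts (0.43, adjusted p = 0.0966), with a range from 1.92e-05 to 0.180 over 11 alternatives. An exact permutation test of 2 against 2 libraries cannot give a p below 0.333.

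*Tpi1*, *Pgk1* and *Pkm* could be read only in the replicate 2 libraries. *Tpi1* (chr6:124810586-124814158), which interconverts the triose phosphates, had 24946 counts in Tc1, against 30868 in Tc9 cells, or 536 and 685 FPKM. *Pgk1* (chrX:106187100-106203699), the first step that makes ATP, had 60969 and 66426 counts, or 1125 and 1267 FPKM. *Pkm* (chr9:59656576-59679372), which makes pyruvate and ATP, had 80857 and 105127 counts, or 1105 and 1488 FPKM, and its isoforms are summed in 1 row of the table. The log2 ratios were 0.31 (counting interval 0.28 to 0.33) for *Tpi1*, 0.12 (0.11 to 0.14) for *Pgk1* and 0.38 (0.37 to 0.39) for *Pkm*. All 3 ratios were positive and smaller than the difference of 0.49 that bounds 95% of genes between the 2 Tc9 libraries. Those of *Tpi1* and *Pkm* were larger, and that of *Pgk1* smaller, than the 0.15 that bounds 95% of genes between the 2 Tc1 libraries.

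*Eno1* (chr4:150236708-150248879), which makes phosphoenolpyruvate, was the most abundant of the 10 genes, with 1978 FPKM in Tc1 replicate 2, 1930 in Tc9 replicate 1 and 2349 in Tc9 replicate 2. The Tc1 library lay between the 2 Tc9 libraries. The edgeR log2 fold change was 0.07 ± 0.19 (SE), with an adjusted p of 0.844. *Ldha* (chr7:46842274-46855627), which turns pyruvate into lactate, had 1850, 1556 and 1635 FPKM in the same libraries. Both Tc9 libraries were below the Tc1 library and within 0.06 of each other on the log2 scale. The edgeR log2 fold change was -0.25 ± 0.17 (SE), with an adjusted p of 0.393.

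Taken over the 6 genes read in 3 libraries, 3 had both Tc9 libraries above the Tc1 library (*Hk1*, *Gpi1* and *Aldoa*), 2 had both below (*Hk2* and *Ldha*) and 1 had the Tc1 library between (*Eno1*). Among all 2622 genes tested, 44.0% had both Tc9 libraries above and 37.8% had both below, 81.8% in all. None of the 6 genes passed an adjusted p of 0.05 in the edgeR test of 3 libraries, where 10.7% of all genes were called, 7.51% higher and 3.2% lower in Tc9 cells. The largest log2 fold changes among the 6 were those of *Hk1* (0.61), *Hk2* (-0.56) and *Gpi1* (0.55), which were close in size. Over these 6 genes the log2 fold change had a median of 0.25, beside 0.05 for all genes tested, and against Tc1 replicate 2 it was 0.095 with Tc9 replicate 1 alone and 0.40 with Tc9 replicate 2 alone. Tc9 replicate 2 lay above Tc9 replicate 1 by 0.27 to 0.37 for *Hk1*, *Gpi1*, *Aldoa* and *Eno1*, beside 49.4% of genes with at least 1000 counts that were higher in Tc9 replicate 2 at all.

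For all 10 genes, the replicate 2 libraries gave a median log2 ratio of 0.25, beside 0.03 over the 6161 genes that passed the filter. Of the 10 genes, 8 were higher and 2 (*Hk2* and *Ldha*) were lower in Tc9 cells, beside 52.4% of all genes that were higher and 47.6% that were lower, with *Slc2a1* counted as higher at 0.0037. Among genes with over 1000 counts in both libraries, as all 10 have, 46.3% were higher. By the rule of a 1.5-fold difference, *Hk1* (1.69-fold), *Gpi1* (1.64-fold) and *Aldoa* (1.51-fold) were higher and *Hk2* (1.52-fold) was lower, beside 33.2% of all genes, 20.7% higher and 12.5% lower by as much. *Aldoa* and *Hk2* lay just beyond that limit of 0.58 on the log2 scale, and the next gene inside it was *Pkm*, at 1.30-fold. *Aldoa* fell inside it with TMM factors of the replicate 2 range (0.56), and *Hk2* did so with depth alone (-0.55), on the log2(FPKM + 1) scale (-0.54) and on the log2(FPKM + 0.1) scale (-0.55). With Tc9 replicate 1 averaged in, *Gpi1* (0.53), *Aldoa* (0.43) and *Hk2* (-0.56) lay inside it and *Hk1* (0.60) beyond it. With Tc9 replicate 1 in place of replicate 2, the differences were 1.36-fold for *Hk1*, 1.28-fold for *Gpi1* and 1.20-fold for *Aldoa*, all higher, and 1.42-fold lower for *Hk2*, so that none of the 4 reached 1.5-fold. The comparisons of 2, 3 and 4 libraries share Tc1 replicate 2 and Tc9 replicate 2 and are not independent of each other.

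**Figure D2:**
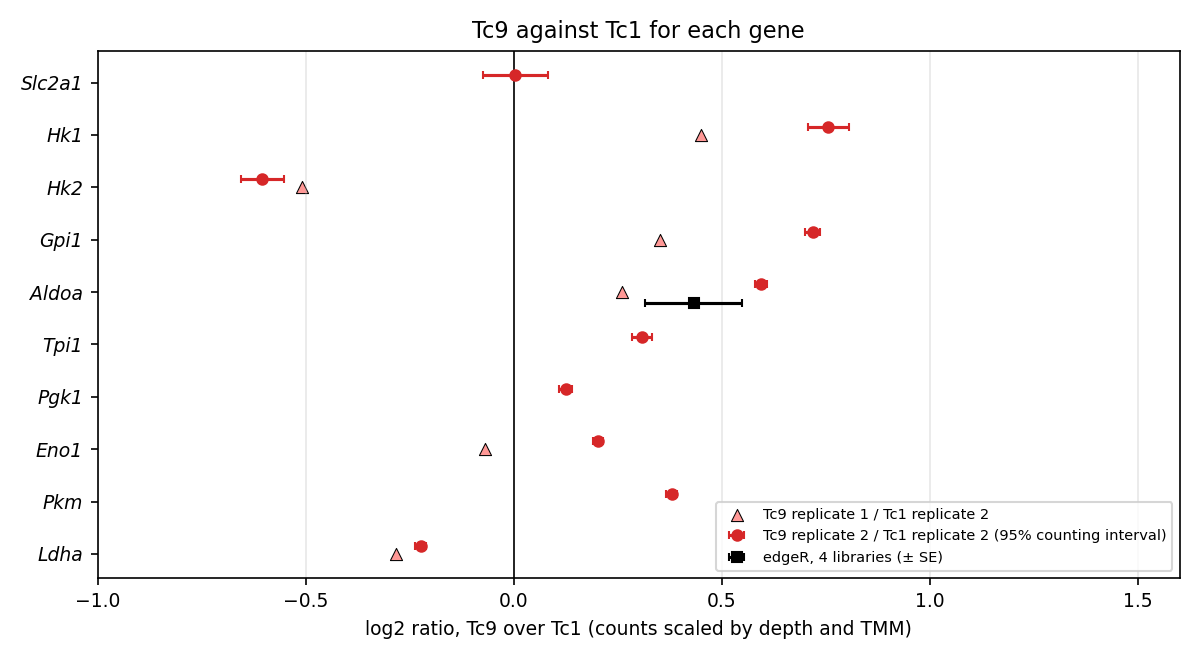
Log2 ratio of Tc9 to Tc1 cells for each of the 10 genes (circles, replicate 2 libraries with the 95% counting interval; triangles, Tc9 replicate 1 over Tc1 replicate 2 where it can be read; square, edgeR over 4 libraries ± SE). *Hk2* and *Ldha* lie below 0 in both Tc9 libraries, *Hk1*, *Gpi1* and *Aldoa* above 0 in both, and *Eno1* on both sides of 0.

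The other genes of the pathway were read in the same way. Of 23 such genes, 13 passed the low-count filter for the replicate 2 pair. In Tc9 replicate 2, 10 were higher and 3 lower than in Tc1 replicate 2 (52.4% and 47.6% of all genes), with a median log2 ratio of 0.51, and by 1.5-fold or more 6 were higher and 1 was lower (20.7% and 12.5% of all genes). In the 3 libraries, 7 could be tested, and 1 was higher (*Aldoc*), 1 was lower (*Eno3*) and 5 did not pass, beside 7.51% and 3.2% of all genes. *Pgk2* and *Ldhc*, isoenzymes of the testis, were listed in neither replicate 2 library, *Hk3* had 14 and 11 counts, and *Hkdc1* had 1 and 3. *Bpgm*, which makes 2,3-bisphosphoglycerate, had 399 and 358 counts in Tc1, against 329 and 298 in Tc9 cells, with an edgeR adjusted p of 0.160 over 4 libraries. *Slc2a8*, *Adpgk*, *Pfkp* and *Pgam2* were reached in Tc9 replicate 2 only.

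*Aldoc*, the aldolase isoenzyme best known from brain, had 1305 and 1225 counts in the Tc1 libraries, against 5169 and 5339 counts in the Tc9 libraries. The groups lay far apart, and the replicates of each group were close. The edgeR log2 fold change over 4 libraries was 2.06 ± 0.11 (SE), a 4.16-fold difference, with an adjusted p of 1.56e-06. *Aldoa* still made up nearly all of the aldolase RNA, as the share of *Aldoc* in the summed FPKM of both was 1.09% and 1.03% in Tc1 cells and 3.54% and 2.92% in Tc9 cells. *Eno3*, the muscle enolase, had 1698 counts in Tc1 replicate 2, against 868 and 838 counts in the Tc9 libraries. Its edgeR log2 fold change over 3 libraries was -0.99 ± 0.20 (SE), a 1.99-fold lower level in Tc9 cells than in the lone Tc1 library, with an adjusted p of 0.0294. Without the filter on low counts the edgeR adjusted p was 0.206, the highest of 7 alternatives. The share of *Eno3* among *Eno1*, *Eno2* and *Eno3* was 1.83% in Tc1 replicate 2 and 0.885% and 0.708% in the Tc9 libraries. *Ldhb*, the lactate dehydrogenase of heart, had 210 counts in Tc1 replicate 2, against 256 and 328 in the Tc9 libraries, which was 0.300% of the lactate dehydrogenase FPKM in Tc1 and 0.441% and 0.543% in Tc9 cells, with an edgeR adjusted p of 0.298.

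**Figure D3:**
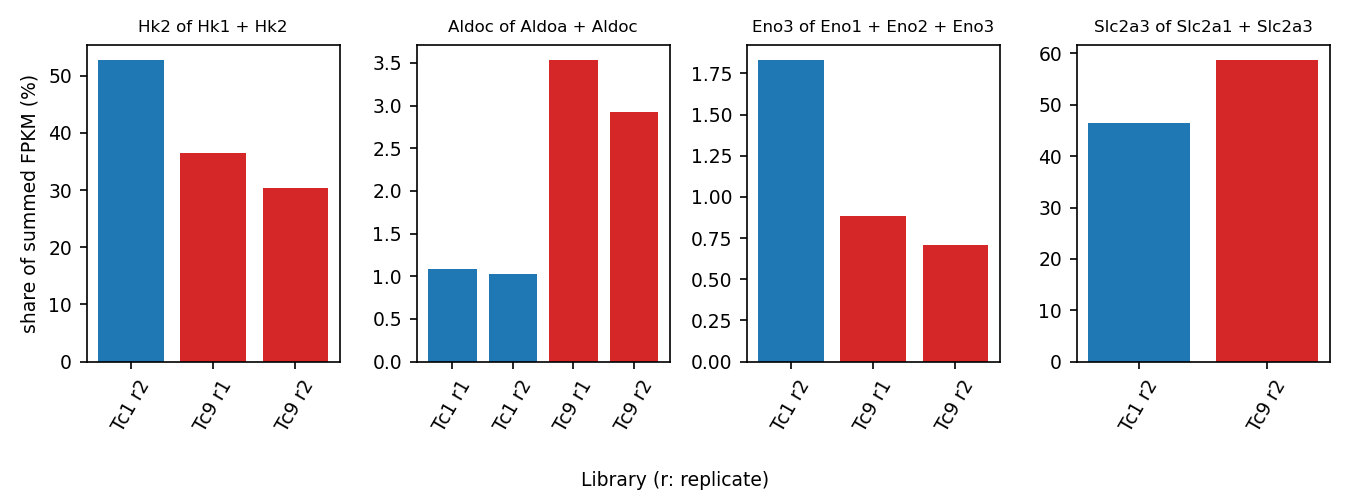
Share of 1 isoenzyme in the summed FPKM of its step, in percent, by library (blue, Tc1; red, Tc9; r1 and r2, replicates 1 and 2; each panel has its own axis from 0). The *Hk2* share was 52.8% in the Tc1 library and 36.5% and 30.3% in the Tc9 libraries, and the *Aldoc* share was 1.09% and 1.03% in Tc1 cells and 3.54% and 2.92% in Tc9 cells.

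A further set could be read in the replicate 2 libraries alone. *Slc2a3*, which encodes the high-affinity glucose transporter GLUT3, had 3627 counts in Tc1, against 5944 in Tc9 cells, a log2 ratio of 0.71 (counting interval 0.65 to 0.77). Its share in the summed FPKM of *Slc2a1* and *Slc2a3* was 46.4% in Tc1 and 58.7% in Tc9 cells. *Slc2a6*, a lysosomal member of the transporter family, had 330 and 1023 counts (log2 ratio 1.63). Of the phosphofructokinases, which catalyze the committed step of glycolysis, *Pfkl* had 4460 and 5535 counts (0.31) and *Pfkm* 513 and 930 counts (0.86). *Pgam1*, phosphoglycerate mutase, had 22551 and 25230 counts (0.16). *Pfkp*, the platelet phosphofructokinase, had 16264 counts in Tc9 replicate 2, more per length than *Pfkl* there, and was not reached in a Tc1 library.

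*Gapdh*, the dehydrogenase between *Tpi1* and *Pgk1*, had 231567 counts in Tc1 replicate 2, against 253989 and 329925 in the Tc9 libraries. Its edgeR log2 fold change over 3 libraries was 0.34 ± 0.20 (SE), with an adjusted p of 0.343, and Tc9 replicate 2 lay 0.38 above Tc9 replicate 1. *Gapdhs*, its sperm isoenzyme, had 70.2 and 118 counts in the replicate 2 libraries (log2 ratio 0.73), with an edgeR adjusted p of 0.305 over 3 libraries. With *Gapdh* and *Pgam1* added, the pathway took 2.31% of the counts of Tc1 replicate 2 and 3.03% of those of Tc9 replicate 2. Many of these genes have processed copies elsewhere in the mouse genome, and how reads were split between copies is not given in the sources used here. Of 10 named copies, *Ldhal6b* had 25, 17, 20 and 11 counts (Tc1 replicates 1 and 2, Tc9 replicates 1 and 2), *Eno1b* had 74.1 counts in Tc9 replicate 2, and the other 8 were not listed.

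**Figure D4:**
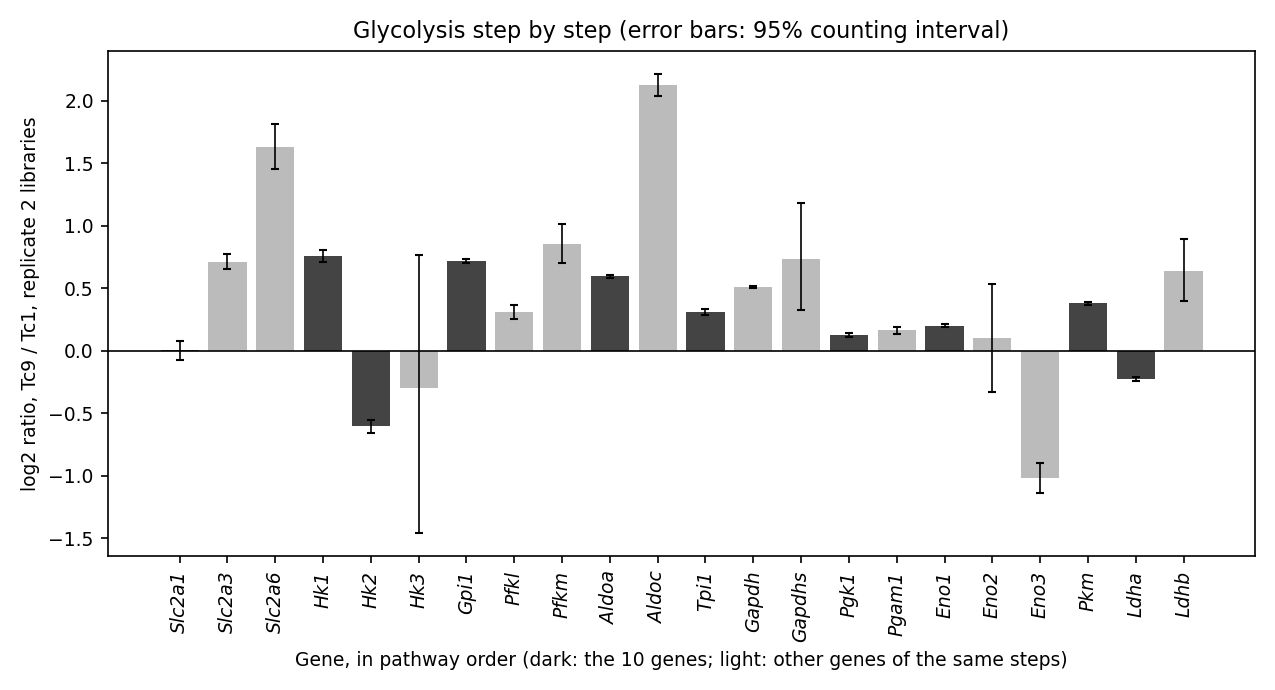
Log2 ratio of Tc9 to Tc1 in the replicate 2 libraries for each gene of the transport and enzyme steps that passed the filter, in pathway order (dark bars, the 10 genes; light bars, other genes of the same steps; *Bpgm*, on a side branch, is not drawn; error bars, 95% counting interval). *Aldoc* (2.12) and *Slc2a6* (1.63) are the highest bars, and *Eno3* (-1.02), *Hk2* (-0.60), *Hk3* (-0.30) and *Ldha* (-0.22) lie below 0.

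Past pyruvate, 16 genes of lactate and pyruvate transport, of pyruvate dehydrogenase and its regulators and of pyruvate carboxylase were followed. Of these, 8 passed the low-count filter for the replicate 2 pair, 4 higher and 4 lower in Tc9 replicate 2, with a median log2 ratio of -0.05, beside 52.4% of all genes higher, 47.6% lower and a median of 0.03. By 1.5-fold, 2 were higher and 2 lower, beside 20.7% and 12.5% of all genes. Of pyruvate dehydrogenase, which turns pyruvate into acetyl-CoA, the subunits *Pdha1*, *Dlat* and *Dld* could be compared, and *Pdhb* was reached in Tc9 replicate 2 only. *Pdha1* had 5708 counts in Tc1, against 4007 in Tc9 cells (log2 ratio -0.51), and *Dlat* 2425 and 1594 (-0.60). *Dld* had 3540 counts in Tc1 replicate 2, against 2756 and 2005 in the Tc9 libraries, with an edgeR log2 fold change of -0.57 ± 0.26 (SE) over 3 libraries and an adjusted p of 0.223. *Pcx*, pyruvate carboxylase, had 529 and 2256 counts (log2 ratio 2.09), and *Pdk2*, a kinase that inhibits pyruvate dehydrogenase, 34 and 152 (2.10). *Slc16a1*, the lactate carrier MCT1, had 6471 and 5629 counts (-0.20).

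The pentose phosphate pathway, which branches off at glucose 6-phosphate, showed small differences. Of its 6 genes that passed the low-count filter for the replicate 2 pair, 2 were higher and 4 lower in Tc9 replicate 2. Of all genes, 52.4% were higher and 47.6% lower. The median log2 ratio of the 6 was -0.08, and none differed by 1.5-fold, beside 33.2% of all genes. All 6 had at least 1240 counts in both libraries, while the 33.2% also covers genes with fewer counts. None of 3 genes tested in the 3 libraries passed (*G6pdx*, *H6pd* and *Pgd*), nor did the 2 tested in all 4, beside 10.7% and 34.1% of all genes that passed there. *Pgd* had 4554 and 4931 counts in Tc1, against 4637 and 4621 in Tc9 cells. Of the genes of gluconeogenesis, the reverse pathway, *Fbp1*, *Fbp2*, *Pck1* and *G6pc* were listed in neither replicate 2 library, although both tables reach their place, and *Pck2* and *G6pc3* were reached in Tc9 replicate 2 only.

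Among the regulators of the pathway, *Egln1* was higher in Tc9 cells in the test of 4 libraries. *Hif1a* and *Epas1* were higher in the test of 3 libraries, where the lone Tc1 library gives no spread of its own. Of 23 regulators, 16 passed the low-count filter for the replicate 2 pair, 12 higher and 4 lower, with a median log2 ratio of 0.16, beside 52.4% and 47.6% of all genes and a median of 0.03. By 1.5-fold or more, 5 were higher and 1 was lower, beside 20.7% and 12.5% of all genes. Of 11 tested in the 3 libraries, 2 were higher and none lower, beside 7.51% and 3.2% of all genes. Of 6 tested in all 4 libraries, 1 was higher and none lower, which is near the 17.4% of all genes that were higher there. *Hif1a*, which encodes HIF-1α, had 9239 counts in Tc1 replicate 2, against 20694 and 19503 in the Tc9 libraries. Its edgeR log2 fold change was 1.12 ± 0.21 (SE), a 2.18-fold difference, with an adjusted p of 0.0261. *Epas1*, which encodes HIF-2α, had 31 counts in Tc1 replicate 2, against 824 and 1125 in the Tc9 libraries (4.97 ± 0.38, SE), with an edgeR adjusted p of 0.00192. Without the filter on low counts, *Hif1a* and *Epas1* did not pass in the 3 libraries (edgeR adjusted p of 0.203 for both). This was the highest adjusted p of 7 alternatives for each of them.

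*Egln1*, which encodes the prolyl hydroxylase that marks HIF-1α for decay, had 3796 and 3726 counts in Tc1, against 6018 and 6089 in Tc9 cells. Its edgeR log2 fold change over 4 libraries was 0.69 ± 0.10 (SE), with an adjusted p of 0.00101, which became 0.104 without Tc1 replicate 1, the highest of 11 alternatives, and 0.0884 without Tc1 replicate 2. The other 2 prolyl hydroxylases, *Egln2* and *Egln3*, did not pass in the same test (adjusted p of 0.141 and 0.721), nor did *Arnt*, the partner of HIF-1α (adjusted p of 0.134). *Foxk1*, a forkhead factor that induces glycolysis genes, had 3565 counts in Tc1 replicate 2, against 5901 and 7063 in the Tc9 libraries, with an edgeR adjusted p of 0.0803. *Myc* had 16774 and 23570 counts in the replicate 2 libraries (log2 ratio 0.49). Of the bifunctional enzymes that set fructose 2,6-bisphosphate, the activator of phosphofructokinase, *Pfkfb1* had 264 and 148 counts (-0.83), *Pfkfb2* 271 and 451 (0.73), and *Pfkfb3* 1716 counts in Tc1 replicate 2, against 1735 and 1445 in the Tc9 libraries.

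**Figure D5:**
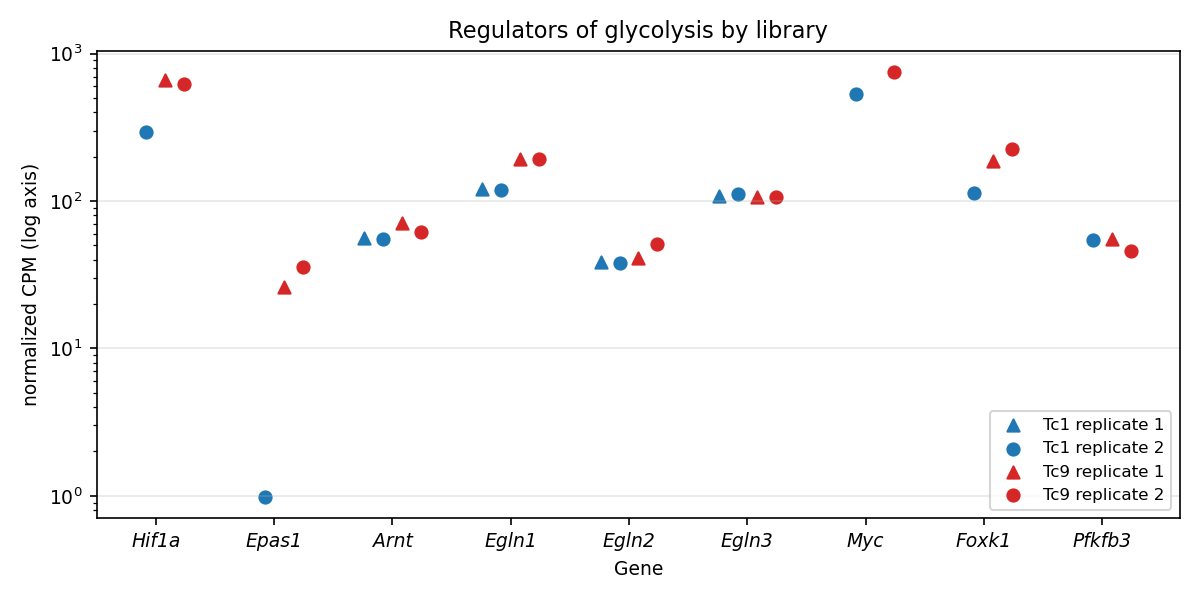
Level of regulators of glycolysis in each library that reaches them, in normalized CPM (counts scaled by depth and TMM factors) on a log axis (blue, Tc1; red, Tc9; triangles, replicate 1; circles, replicate 2). *Hif1a*, *Epas1*, *Egln1* and *Foxk1* lie higher in both Tc9 libraries than in each Tc1 library that reaches them, and *Egln3* lies at a like level in all 4.

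The genes whose levels over the 4 libraries were most like those of *Aldoa* were *Csnk1g2*, *Mfsd5*, *Tbc1d10c*, *Chpf2* and *Bmp7*. Their Euclidean distance from *Aldoa* in centred log2 CPM was 0.036 for *Csnk1g2* and up to 0.072 for *Bmp7*. In the edgeR test of 4 libraries, *Csnk1g2* and *Chpf2* passed (adjusted p of 0.0290 and 0.0474). *Mfsd5*, *Tbc1d10c* and *Bmp7* did not (adjusted p of 0.0544, 0.0547 and 0.257), and *Bmp7* had only 29 to 43 counts. *Csnk1g2*, a casein kinase gene, had 2514 and 2576 counts in Tc1, against 3044 and 3850 in Tc9 cells, with the same order of libraries as *Aldoa* in Tc9 cells. The likeness rests on 4 libraries and on the 1284 genes tested in all of them, among which *Aldoc* and *Bpgm* were the only other glycolysis genes.

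Genes that define the groups went with the labels. *Il9* had 3 counts in Tc1 replicate 2, against 2601 and 2667 in the Tc9 libraries, and *Ifng* 15303, 5097 and 4700. Over the 3 libraries, the edgeR log2 fold change was 9.72 for *Il9*, 6.93 for *Il10*, 2.84 for *Gata3* and 1.27 for *Irf4*. It was -1.64 for *Ifng*, -1.10 for *Gzmb* and -1.12 for *Il9r*, whose counts were low (23, 11 and 10). *Tbx21*, also on this list, was reached in Tc9 replicate 2 only. Of 8 T cell markers tested in all 4 libraries, 2 were higher in Tc9 cells (*Cd3e* and *Cd3g*), 2 were lower (*Cd2* and *Cd5*) and 4 did not pass, beside 17.4% and 16.7% of all genes higher and lower, and *Cd8a* had 19330 to 21622 counts in the 4 libraries. Of 12 myeloid markers, 8 had at most 3 counts in both replicate 2 libraries and *S100a8* and *S100a9* were not listed; their summed level was 7.58 normalized CPM in Tc1 and 14.3 in Tc9 cells, nearly all of it from *Cd68*, which was higher in Tc9 cells over 4 libraries (log2 fold change 0.84, edgeR adjusted p = 0.00295). Of 8 melanoma markers, *Pmel*, *Tyr* and *Mitf* were listed, with a summed level of 2.61 normalized CPM in Tc1 and 4.28 in Tc9 cells, and *Dct*, *Tyrp1* and *Sox10* were listed in neither replicate 2 library. B cell markers summed to 5.61 and 15.5 normalized CPM, mostly *Cd79b* (155 and 473 counts), which was higher in Tc9 cells over 3 libraries (1.46, edgeR adjusted p = 0.0219). Stromal and endothelial markers summed to 14.6 and 14.8, mostly *Pecam1*, and red cell markers to 0.382 and 0.637. The part of these low levels in the results above was not tested, and the 10 genes alone summed to 15349 and 18465 normalized CPM in the same libraries.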

How the data were processed

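Tc1 and Tc9 cells sorted from tumors gave 2 pooled libraries for RNA sequencing in each group. For every gene, the authors deposited an expected count (estimated reads, not normalized), an FPKM value and a length. Per the labels the build is mm10, and the aligner and counting program are not given in the sources used here. Each table stops at another gene identifier, so genes were compared over the range their libraries reach (1681, 3467 and 7964 genes for 4, 3 and 2 libraries), and a gene not listed within a range was taken as 0. An incomplete last row of 1 table was dropped. Depth came from the ratio of count to FPKM, relative to the total of Tc9 replicate 2, over genes whose length was equal in both tables and whose counts reached 500 in both. The 2 libraries of each group differed beyond sampling noise (mean chi-square per gene 4.54 for Tc1 and 60.1 for Tc9 cells) and were each counted.

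Expected counts were rounded and tested two-sided with the quasi-likelihood test of edgeR 4.0.16 (R 4.3.3), with filterByExpr at a minimum count of 10, TMM factors of the 4-library range and Benjamini-Hochberg adjustment over all genes tested. The test of 3 libraries rests on 1 residual degree of freedom. The SE of a log2 fold change was its size divided by the square root of the F statistic. Replicate 2 ratios carry a prior count of 2 and Wilson 95% intervals, which hold counting error alone, as no molecular identifiers tell copies of a molecule apart. DESeq2 1.42.0 and limma 3.58.1 on log2(FPKM + 1) and log2(FPKM + 0.1) were alternatives. The scripts were tested on simulated data.

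The 10 genes and all other lists were chosen with earlier results of these data known. Named were all 10 genes; from the other lists, genes past an adjusted p of 0.05, genes beyond 1.5-fold in the replicate 2 libraries with at least 100 counts, and isoenzymes of the same steps; and the 5 genes nearest to *Aldoa*. Other genes of these lists were named after their values were seen. Not every list gene is reported here. Same-numbered libraries did not deviate together (correlation -0.06 over 1284 genes), so the numbers were not used as pairs.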

Additional observations from a re-analysis of the deposited data

How the results depend on the processing

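Over 4 libraries, 224 genes were higher and 214 lower in Tc9 cells. These counts were 130 and 110 without the filter on low counts, and ranged from 72 to 405 and from 39 to 405 when 1 library was left out, lowest without Tc1 replicate 1 (72 and 39; 82 and 54 without Tc1 replicate 2) and highest without Tc9 replicate 1 (405 and 405; 343 and 350 without Tc9 replicate 2). Over 3 libraries, 197 were higher and 84 lower with edgeR. Without the filter, edgeR called 0 and 0, with 598 genes at an unadjusted p under 0.05. DESeq2, run with the filter only, called 217 and 121. A minimum count of 50 gave 297 and 166, scaling by depth alone 371 and 163, and TMM factors of the 3-library range 328 and 211. With the replicate block, 231 and 213 genes were called over 4 libraries, 406 of them shared, and no call of *Aldoa*, *Aldoc* or *Egln1* changed.

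*Aldoa* kept its direction over 4 libraries in all alternatives run (0.26 to 0.59 when 1 library was left out) and lost its call without the filter (0.43) or without either Tc1 library (0.44 and 0.43). *Gpi1* passed only with depth alone (0.59). The median of the 10 genes was 0.30 with depth alone, 0.30 on log2(FPKM + 1), 0.30 on log2(FPKM + 0.1), 0.22 with Tc9 replicate 1 averaged in and 0.22 with TMM factors of the replicate 2 range, where *Slc2a1* turned from 0.0037 to -0.027. *Eno1* turned from 0.072 to -0.070 (and was 0.20 without Tc9 replicate 1) when Tc1 replicate 2 was set against Tc9 replicate 1 alone; setting it against 1 Tc9 library at a time was added after seeing the data, with ranges of 0.45 to 0.76 for *Hk1*, -0.60 to -0.51 for *Hk2*, 0.35 to 0.72 for *Gpi1*, 0.26 to 0.59 for *Aldoa* and -0.28 to -0.22 for *Ldha*. The cause of these changes was not tested. The 10 genes had at least 2616 counts in each library that reaches them, and 9 of them were read in 1 Tc1 library only.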
